A study of Mus musculus with 5 samples.

Results

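The genes described here belong to allergic type 2 immunity: the cytokine genes Il4, Il5, Il9 and Il13, the alarmin gene Tslp, and the receptor genes Il13ra1, Il13ra2, Il17rb, Csf2rb2 and Ptgdr2. They were taken by name, as the probes whose platform annotation gives only that symbol, and they are 10 of 13410 genes named on the array. Each had 1 probe, so no averaging over probes was needed. The measurements came from whole lungs of 5 C3H mice sensitised to ovalbumin, an egg-white allergen, and then challenged with it. RNA of each ova mouse was amplified and hybridised on a 2-colour array against amplified RNA pooled from control C3H lungs, so that all 5 arrays share that pool. C3H is an inbred strain. The sources used here give neither ages, the substrain, the schedule of ovalbumin, the handling of the control mice nor the number of mice in the pool.

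Type 2 immunity is the response to helminths and allergens. Damaged airway epithelium releases alarmins such as TSLP, IL-25 and IL-33, which act on innate lymphoid cells, dendritic cells and type 2 helper T cells. These cells secrete IL-4, which drives IgE class switching, IL-5, which sustains eosinophils, IL-9, a growth factor for mast cells, and IL-13, which drives mucus production by the airway epithelium. The signalling receptors of IL-4, IL-5, IL-9 and IL-13 pair a ligand-specific chain with a shared one and act through JAK kinases and STAT transcription factors.

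Each value is the log ratio of ova mouse and control pool for a gene on one array, after centring that array on its median. The log base is not stated and was taken as 2; the numerator is not stated either, so values are given as lying below or above 0 and not as increases or decreases. Airway genes known to respond to IL-13 served as a landmark for the 2 sides. Of 18 such genes tested, 15 passed the threshold below 0 and 0 above it, among them the goblet cell gene Clca1 at -4.33 ± 0.40 and the macrophage and epithelial gene Retnla at -4.79 ± 0.30 (SD, n = 5). The next largest were Arg1 (-3.48), Tff2 (-3.32, n = 4), Slc26a4 (-3.31) and Muc5ac (-3.00), and at an unadjusted p under 0.05 the counts were also 15 and 0. A ratio says nothing of the absolute level, so neither the lung identity of the RNA nor the abundance of a cytokine could be checked. In whole tissue, a different number of cells of a type and a different amount of RNA per cell cannot be told apart.

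The arrays held between 11778 and 13320 values for 17280 probes, and mouse 4 had the fewest. The SD of the gene ratios was lowest in mouse 1 (0.206); the other 4 arrays had 0.325 to 0.386. Genes with values on at least 4 arrays, 9727 in all, were tested against 0 with limma, and a gene passed at a Benjamini-Hochberg adjusted p under 0.05. Of these 9727 genes, 27.3% passed, 15% below 0 and 12.3% above 0. The test measures the spread between ova mice only. It does not contain the spread between control mice, which the pool hides. A deviation of the pool would enter every array alike. So would an effect of the dyes if each array used them the same way, which is not given. Neither the test against 0 nor leaving out a mouse can detect such a shared offset.

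Of the 10 type 2 genes, 8 had enough values to be tested and 5 of these passed. Il5, Csf2rb2 and Il17rb lay below 0, on the side of Clca1 and Retnla, and Tslp and Il9 lay above it. Il13ra1, Il13ra2 and Ptgdr2 did not pass. Il4 and Il13 had values in 3 mice each and were not tested. With 8 genes tested against a background of 27.3%, the count is given as a description of these genes and not as a property of the group. Of the 5 genes that passed, Il5 and Csf2rb2 had a mean ratio above 0.5 in size, as had 607 of all 2656 genes that passed.

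**Figure D1:**
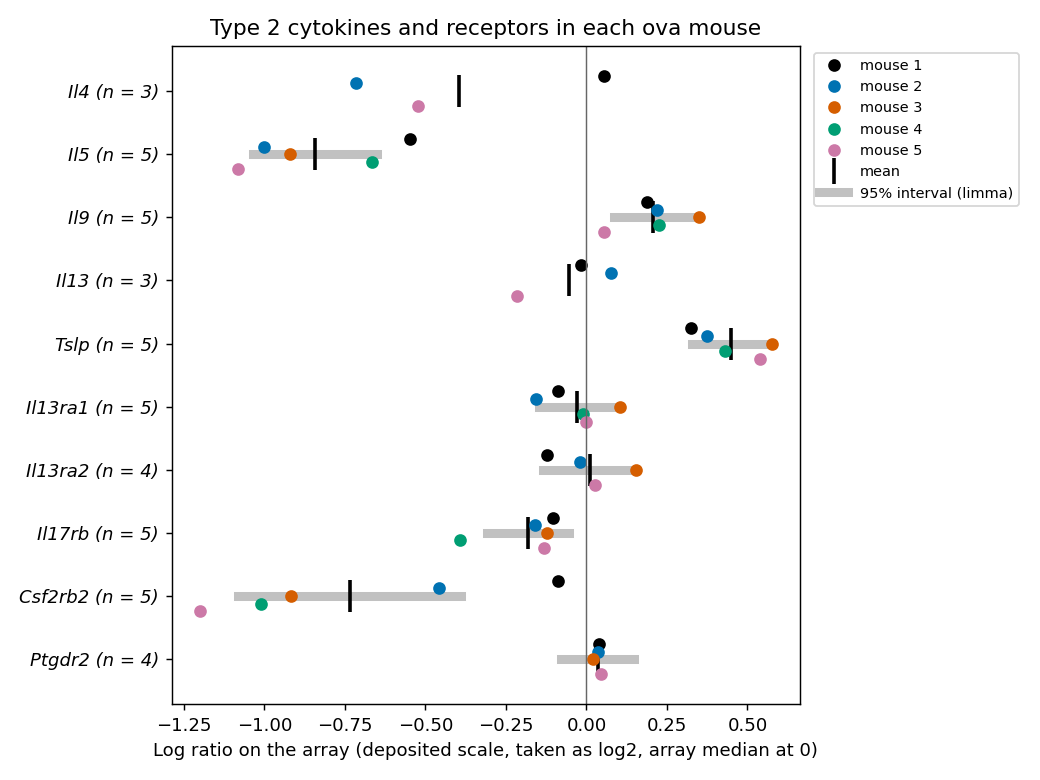
Log ratio of each ova mouse against the control pool (x axis, deposited scale taken as log2, array median at 0) for the 10 type 2 genes (rows, with the number of mice measured). Points are mice, the black tick is the mean and the grey bar the 95% interval of the mean from limma, drawn for the 8 genes tested. Il5 and Csf2rb2 reach the largest sizes below 0, Tslp lies above 0 in every mouse, and the 3 genes at the centre straddle or touch 0.

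Il5 had the largest ratio of the 10 genes. Its ratio was -0.55 in mouse 1, -1.0 in mouse 2, -0.92 in mouse 3, -0.67 in mouse 4 and -1.08 in mouse 5. All 5 mice lay below 0, with mice 2, 3 and 5 farther out than mice 1 and 4. Of the 8042 genes with values on all 5 arrays, 41% had all 5 mice on the same side of 0. The mean was -0.84 ± 0.23 (SD, n = 5; 95% interval -1.03 to -0.65), which is 1.79-fold if the log base is 2, with a limma adjusted p of 0.00085. This placed Il5 as the 169th most negative of the 9727 genes. Divided by the SD of all gene ratios on its array, Il5 gave -2.65, -2.80, -2.83, -1.90 and -2.80 in mice 1 to 5, so that mouse 1 no longer stood out and mouse 4 did.

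Il5 belongs to a cluster of cytokine genes on chromosome 11. In RefSeq's gene order on assembly GRCm38.p6 the protein-coding genes follow each other in the order Kif3a, Il4, Il13, Rad50, Il5 and Irf1. The DNA repair gene Rad50, which lies between Il13 and Il5, had a mean ratio of -0.28 ± 0.45 (n = 5, adjusted p = 0.199), and Irf1, a transcription factor gene on the other side of Il5, had -0.15 ± 0.19 (adjusted p = 0.171). Neither neighbour passed, while Il5 did. The difference between Il5 and its neighbours was not tested.

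Il4 and Il13, the other 2 cytokines of the cluster, were thinly measured. Both were blank in mice 3 and 4, and spot brightness was not analysed here. Il4 had ratios of 0.055 in mouse 1, -0.72 in mouse 2 and -0.52 in mouse 5, a mean of -0.39 ± 0.40 (SD, n = 3). Mice 2 and 5 lay on the side of Il5 and mouse 1 lay just across 0. Il13 had -0.016 in mouse 1, 0.075 in mouse 2 and -0.22 in mouse 5, a mean of -0.053 ± 0.15 (n = 3), and its mice lay on both sides of 0. With 3 values an exact sign-flip test cannot give a two-sided p under 0.25. In a fit over genes with at least 2 values, limma adjusted p was 0.11 for Il4 and 0.674 for Il13.

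The 250 bases before the start of Il5, Il4 and Il13 are shown because Il5 had the largest ratio of the 10 genes and Il4 and Il13 are its cluster mates. The sequences are RefSeq's on GRCm38.p6, read 5′ to 3′ on the strand of the gene and ending 1 base before its start. Il4 has 2 start sites in the table, and the one at the 5′ end of the gene is given. Capitals mark matches on either strand to 3 motifs. The first is the sequence GATAA, of the type bound by GATA factors. The other two join TTC and GAA, with 4 bases of any kind between them in the STAT6 type and 3 in the type of other STAT factors, and each reads the same pattern on both strands.
Il5, chr11:53720544-53720793, plus strand: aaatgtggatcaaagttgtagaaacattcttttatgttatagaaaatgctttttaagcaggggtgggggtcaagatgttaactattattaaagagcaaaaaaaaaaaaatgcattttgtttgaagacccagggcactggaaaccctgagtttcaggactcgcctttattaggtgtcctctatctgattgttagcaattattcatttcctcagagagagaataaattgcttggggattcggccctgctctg
Il4, chr11:53618666-53618915, minus strand: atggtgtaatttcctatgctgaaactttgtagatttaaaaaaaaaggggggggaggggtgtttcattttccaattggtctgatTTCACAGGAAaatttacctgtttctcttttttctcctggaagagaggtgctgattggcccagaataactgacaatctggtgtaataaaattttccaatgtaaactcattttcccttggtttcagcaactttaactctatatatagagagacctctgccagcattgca
Il13, chr11:53634703-53634952, minus strand: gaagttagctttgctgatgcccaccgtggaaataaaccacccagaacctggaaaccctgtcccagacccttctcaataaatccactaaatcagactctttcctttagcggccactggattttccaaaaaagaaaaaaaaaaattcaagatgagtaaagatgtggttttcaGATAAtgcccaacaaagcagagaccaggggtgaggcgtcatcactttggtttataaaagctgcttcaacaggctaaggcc
The Il4 window held 1 match to the STAT6 type, ending 157 bases before the start, and the Il13 window held 1 match to GATAA, ending 75 bases before it. None of the 3 motifs occurred in the Il5 window, which says only that these letters are not in those 250 bases. Other sequences bound by GATA or STAT factors were not searched for, so the window was not shown to lack such a site. Over all 32851 windows of this length in the table, 22.6% held GATAA, 5.85% the STAT6 type and 7.02% the other STAT type. Of the 9 type 2 genes with a window, 3 held GATAA, 2 the STAT6 type and 1 the other STAT type. A match is a stretch of letters and not a shown binding site.

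Il9 lay on the opposite side from Il5. Its ratio was 0.19 in mouse 1, 0.22 in mouse 2, 0.35 in mouse 3, 0.23 in mouse 4 and 0.056 in mouse 5. All 5 mice lay above 0, with mouse 5 nearest to it. The mean was 0.21 ± 0.10 (SD, n = 5; 95% interval 0.087 to 0.33; 1.15-fold if the base is 2), with a limma adjusted p of 0.0221. The call was lost without mouse 2 (adjusted p = 0.0628), mouse 3 (0.0751) or mouse 4 (0.0550), while the mean stayed between 0.17 and 0.25 over all alternatives (adjusted p between 0.016 and 1 over 14 of them). The receptor gene Il9r lay on the other side of 0, with -0.22 ± 0.11 (n = 5, adjusted p = 0.0192). The promoter window of Il9, shown because its gene differs from Il5 in side, held a STAT6 type match.
Il9, chr13:56482258-56482507, minus strand: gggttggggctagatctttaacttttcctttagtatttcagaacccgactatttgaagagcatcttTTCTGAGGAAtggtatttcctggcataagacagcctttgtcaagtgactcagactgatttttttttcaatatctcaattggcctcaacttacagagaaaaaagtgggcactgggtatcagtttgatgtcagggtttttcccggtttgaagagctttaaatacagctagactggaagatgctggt
The match of Il9, in capitals, ends 174 bases before the start.

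The alarmin gene Tslp had the most even ratios of the 5 genes that passed, relative to its mean. It gave 0.32 in mouse 1, 0.38 in mouse 2, 0.58 in mouse 3, 0.43 in mouse 4 and 0.54 in mouse 5. All mice lay above 0, with mouse 1 lowest and mouse 3 highest. The mean was 0.45 ± 0.11 (SD, n = 5; 95% interval 0.33 to 0.57; 1.36-fold if the base is 2), with a limma adjusted p of 0.00143. Tslp was the 265th most positive of the 9727 genes. It passed under all 14 alternatives, with adjusted p-values from 0.00037 to 0.0197. The TSLP receptor pairs Crlf2 with the IL-7 receptor chain. Crlf2 had no value here, and Il7r lay below 0 at -0.25 ± 0.18 (n = 5, adjusted p = 0.0327).

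The other alarmins were measured in few mice. Il33, an epithelial alarmin of the IL-1 family, had values of -0.30 in mouse 2, -0.39 in mouse 3 and -0.24 in mouse 5, all below 0 and thus opposite to Tslp in the same mice. Il25 had a value in mouse 2 only, 0.18. Il1rl1, the receptor gene for IL-33, had no probe that named it alone. Over all genes tested, 15% passed below 0 and 12.3% above. Of the 17 genes listed as alarmins and their other receptor parts, 8 were tested. Among these 8, 2 passed below 0 and 1 above 0, and the median of the means was 0.018. Those below 0 were Il7r and the IL-17 receptor chain gene Il17ra, and the one above was Il18r1, the IL-18 receptor chain gene, at 0.20 ± 0.13 (adjusted p = 0.0407).

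Among the receptors, Csf2rb2 had the largest ratio. It encodes the beta chain that in mice serves the IL-3 receptor alone, a close relative of the common beta chain Csf2rb used by the IL-3, IL-5 and GM-CSF receptors. Csf2rb2 gave -0.088 in mouse 1, -0.46 in mouse 2, -0.92 in mouse 3, -1.01 in mouse 4 and -1.20 in mouse 5. All mice lay below 0, but mouse 1 was close to it and mouse 2 lay between mouse 1 and the other 3. The mean was -0.73 ± 0.45 (SD, n = 5; 95% interval -1.08 to -0.39; 1.66-fold if the base is 2), with a limma adjusted p of 0.01. Its SD was at the 98.4th percentile of the genes tested. In units of each array's SD the ratios were -0.43, -1.29, -2.82, -2.87 and -3.11 for mice 1 to 5, so mice 1 and 2 remained nearest to 0.

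The related chains and ligands of the IL-3, IL-5 and GM-CSF receptors lay nearer to 0 than the mean of Csf2rb2. Csf2rb itself had -0.007 in mouse 1, 0.033 in mouse 2 and 0.14 in mouse 3 and was blank in mice 4 and 5, whereas Csf2rb2 lay below it in each of these 3 mice. Csf2ra, the GM-CSF receptor alpha chain, passed below 0 at -0.22 ± 0.08 (n = 5, adjusted p = 0.0112). The IL-3 receptor alpha chain Il3ra gave -0.11 ± 0.12 (adjusted p = 0.182), and Il5ra, the IL-5 receptor alpha chain carried by eosinophils, had 1 value, 0.16 in mouse 3. The ligand genes Csf2 (-0.069, adjusted p = 0.457) and Il3 (0.078, n = 3) lay near 0. The 2 beta chain genes are alike in sequence, and whether their probes share signal was not tested.

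The window before the start of Csf2rb2 is given because it was the receptor gene with the largest ratio and its window held matches to both a GATA and a STAT motif.
Csf2rb2, chr15:78305722-78305971, minus strand: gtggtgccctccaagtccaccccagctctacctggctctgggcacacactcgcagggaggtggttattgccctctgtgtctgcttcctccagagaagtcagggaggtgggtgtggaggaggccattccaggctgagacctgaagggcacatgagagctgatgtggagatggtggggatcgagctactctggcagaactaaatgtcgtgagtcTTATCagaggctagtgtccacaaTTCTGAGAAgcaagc
The first capitals are the reverse strand of GATAA, ending 33 bases before the start, and the second match the other STAT type, ending 6 bases before it.

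Il17rb, the receptor chain that binds IL-25, had a small ratio below 0. It was -0.11 in mouse 1, -0.16 in mouse 2, -0.12 in mouse 3, -0.39 in mouse 4 and -0.13 in mouse 5. Mouse 4 stood apart from the other 4, which lay within a narrow band. The mean was -0.18 ± 0.12 (SD, n = 5; 95% interval -0.31 to -0.055; 1.13-fold if the base is 2), with a limma adjusted p of 0.0432, just past the threshold. The call was lost whichever mouse was left out, with adjusted p-values from 0.0576 without mouse 1 to 0.092 without mouse 2, and the mean was -0.13 without mouse 4 (adjusted p between 0.0243 and 1 over 14 alternatives). Its partner chain Il17ra, shared by the IL-17 receptors, passed on the same side at -0.18 ± 0.05 (n = 5, adjusted p = 0.0186). The probes of Il17rb and Tslp carry consecutive numbers on the array and yet lay on opposite sides of 0.

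The 2 receptors of IL-13 did not pass. Il13ra1, which joins the IL-4 receptor alpha chain to form the receptor that signals for IL-13, gave -0.087 in mouse 1, -0.16 in mouse 2, 0.10 in mouse 3, -0.012 in mouse 4 and 0.00 in mouse 5. The mean of -0.03 ± 0.10 (n = 5, adjusted p = 0.695) had a 95% interval from -0.15 to 0.087. Il13ra2, which binds IL-13 as a decoy, gave -0.12 in mouse 1, -0.019 in mouse 2, 0.15 in mouse 3 and 0.027 in mouse 5 and was blank in mouse 4. Its mean of 0.01 ± 0.11 (n = 4, adjusted p = 0.918) had an interval from -0.13 to 0.15. Both genes had mice on either side of 0, and neither interval reached the mean ratio of Il17rb, Tslp or Il5.

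Ptgdr2, the prostaglandin D2 receptor CRTH2 of type 2 helper cells, eosinophils and basophils, gave 0.040 in mouse 1, 0.035 in mouse 2, 0.022 in mouse 3 and 0.044 in mouse 5 and was blank in mouse 4. All 4 values lay just above 0 within a very narrow band, and its SD was at the 0.0617th percentile of the genes tested. The mean was 0.035 ± 0.01 (SD, n = 4; 95% interval -0.078 to 0.15; limma adjusted p = 0.626). The limma interval is wider than these values because it draws on the spread of all genes. Of the 6 tested genes of the prostaglandin D2 pathway, 1 passed below 0 and 2 above 0. Over all genes tested the shares were 15% below 0 and 12.3% above. Pla2g4a, the phospholipase that frees arachidonic acid, gave -0.36 ± 0.21 (adjusted p = 0.0124). Hpgd, which inactivates prostaglandins, gave 0.59 ± 0.39 (adjusted p = 0.0146), and the prostaglandin transporter gene Slco2a1 0.22 ± 0.13 (n = 4, adjusted p = 0.0388). The second prostaglandin D2 receptor Ptgdr gave -0.20 ± 0.17 (n = 4, adjusted p = 0.0837), and the haematopoietic prostaglandin D synthase gene Hpgds -0.11 (n = 3).

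**Figure D2:**
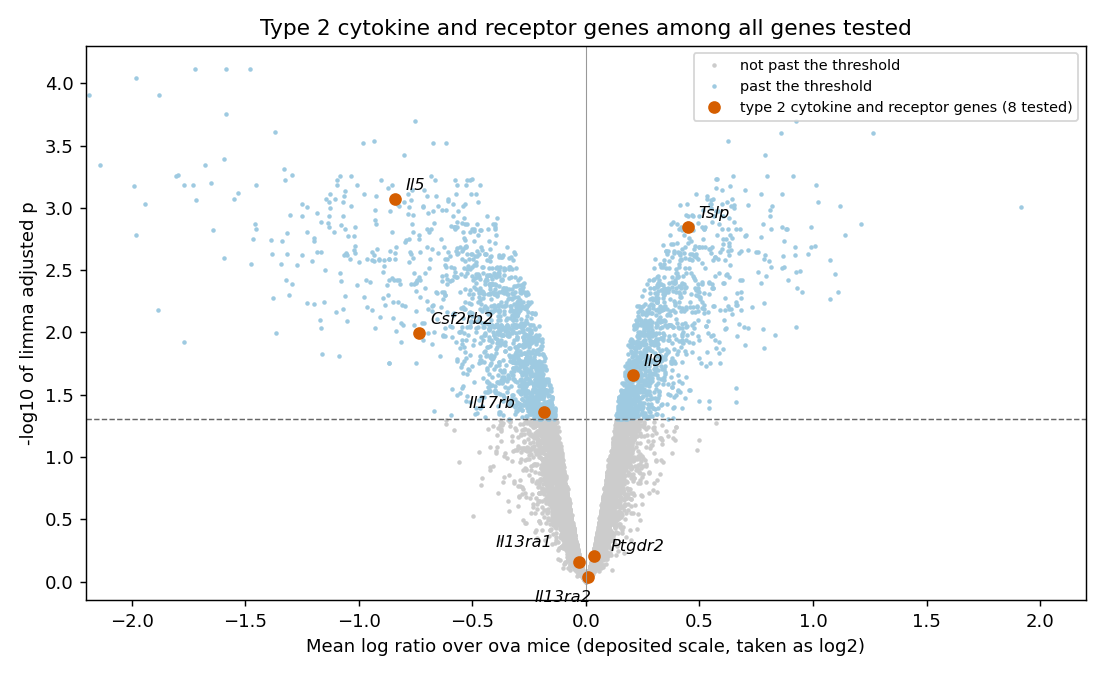
Mean log ratio over ova mice (x axis, deposited scale taken as log2) against -log10 of the limma adjusted p (y axis) for the 9727 genes tested, with the 8 tested type 2 genes in orange and a dashed line at the threshold of 0.05. The axes leave out 17 genes with larger ratios or smaller p-values. Il5, Csf2rb2 and Tslp lie away from the centre, Il9 and Il17rb just above the line, and Il13ra1, Il13ra2 and Ptgdr2 at the foot.

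The order of the 8 tested genes by mean ratio was Il5, Csf2rb2, Il17rb, Il13ra1, Il13ra2, Ptgdr2, Il9 and Tslp. Going along this order, the 95% intervals of neighbours overlapped except between Csf2rb2 and Il17rb and between Il9 and Tslp, where the bounds were 0.33 on both sides and parted only in the fourth decimal. Intervals of genes on the same arrays are not independent, and no difference between 2 genes was tested.

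Of 20 genes listed for IL-4 and IL-13 signalling, 12 were tested, 6 passed below 0 and 0 above in limma's fit (7 and 1 at an unadjusted p under 0.05), and the median of the means was -0.25. The background below 0 was 15%. Socs1, a STAT-induced brake on JAK kinases, had ratios between -0.50 in mouse 1 and -1.45 in mouse 4, with a mean of -1.07 ± 0.35 (n = 5, adjusted p = 0.00117). It was farther from 0 than Il5. The kinase gene Jak2 followed at -0.51 ± 0.15 (adjusted p = 0.00155) and the transcriptional repressor gene Bcl6 at -0.35 ± 0.13 (adjusted p = 0.00463). The phosphatase gene Inpp5d (-0.28), the adaptor gene Dok2 (-0.25) and the kinase gene Tyk2 (-0.23) also passed below 0.

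Stat6, the main transcription factor downstream of IL-4 and IL-13, did not pass. Its mean was -0.27 ± 0.42 (n = 5, adjusted p = 0.194), with 0.11 in mouse 2 and -0.96 in mouse 4 at the ends. Il4ra and Il2rg, the shared chains of the IL-4 receptors, had no probe that named them alone. Of the 14 genes of IL-5, IL-3 and GM-CSF signalling, 10 were tested, with a median of -0.16. In limma's fit 3 passed below 0 and 0 above (5 and 0 at an unadjusted p under 0.05). Of all genes tested, 15% passed below 0 and 12.3% above. Those that passed were Jak2 and Csf2ra, given above, and the kinase gene Syk (-0.31 ± 0.14, n = 4, adjusted p = 0.015). Stat5a (-0.40 ± 0.43, n = 4, adjusted p = 0.0927) and Stat5b (0.059) did not pass.

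Of 19 regulators and surface molecules of type 2 helper cells tested, 5 passed below 0 and 1 above, with a median of -0.13. Over all genes tested 15% passed below 0 and 12.3% above, and the count is a description of these genes. Those below 0 were Il31, a cytokine gene of type 2 helper cells (-0.53 ± 0.24, adjusted p = 0.00446), Cd200r1 (-0.53 ± 0.39), the costimulatory receptor gene Tnfrsf4 (-0.49 ± 0.19), Junb (-0.48 ± 0.22) and Batf (-0.24 ± 0.10, n = 4). Notch1 lay above 0 at 0.15. Gata3, the transcription factor that defines the type 2 helper cell, gave -0.022 ± 0.25 (n = 4, adjusted p = 0.881) with mice on both sides of 0. Il31 thus lay on the side of Il5, and Gata3 did not pass on either.

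Of 11 cytokine genes of other helper types tested, 1 passed on each side of 0, with a median of 0.069, against 27.3% of all genes on either side. Il6 gave -0.31, -1.05, -1.27, -0.57 and -0.98 in mice 1 to 5, with a mean of -0.83 ± 0.39 (adjusted p = 0.00378), which is close to the mean of Il5. Il12a passed above 0 at 0.27 ± 0.20 (adjusted p = 0.031). Ifng, the type 1 helper cytokine, gave -0.028 ± 0.09 (n = 5, adjusted p = 0.709), and Il17a had 2 values, 0.18 and 0.12. Of 18 other receptor genes of the same families, 7 passed below 0 and 0 above in limma's fit (9 and 0 at an unadjusted p under 0.05), with a median of -0.15. They were led by Il10ra (-0.78 ± 0.30, adjusted p = 0.00224), Il21r (-0.53 ± 0.35) and Csf3r (-0.45 ± 0.26), and Il1r1 (-0.27), Il9r, Lifr (-0.16) and Il6st (-0.15) also passed. Over all genes tested, 15% passed below 0 and 12.3% above, and the median was at 0, since the arrays were centred.

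**Figure D3:**
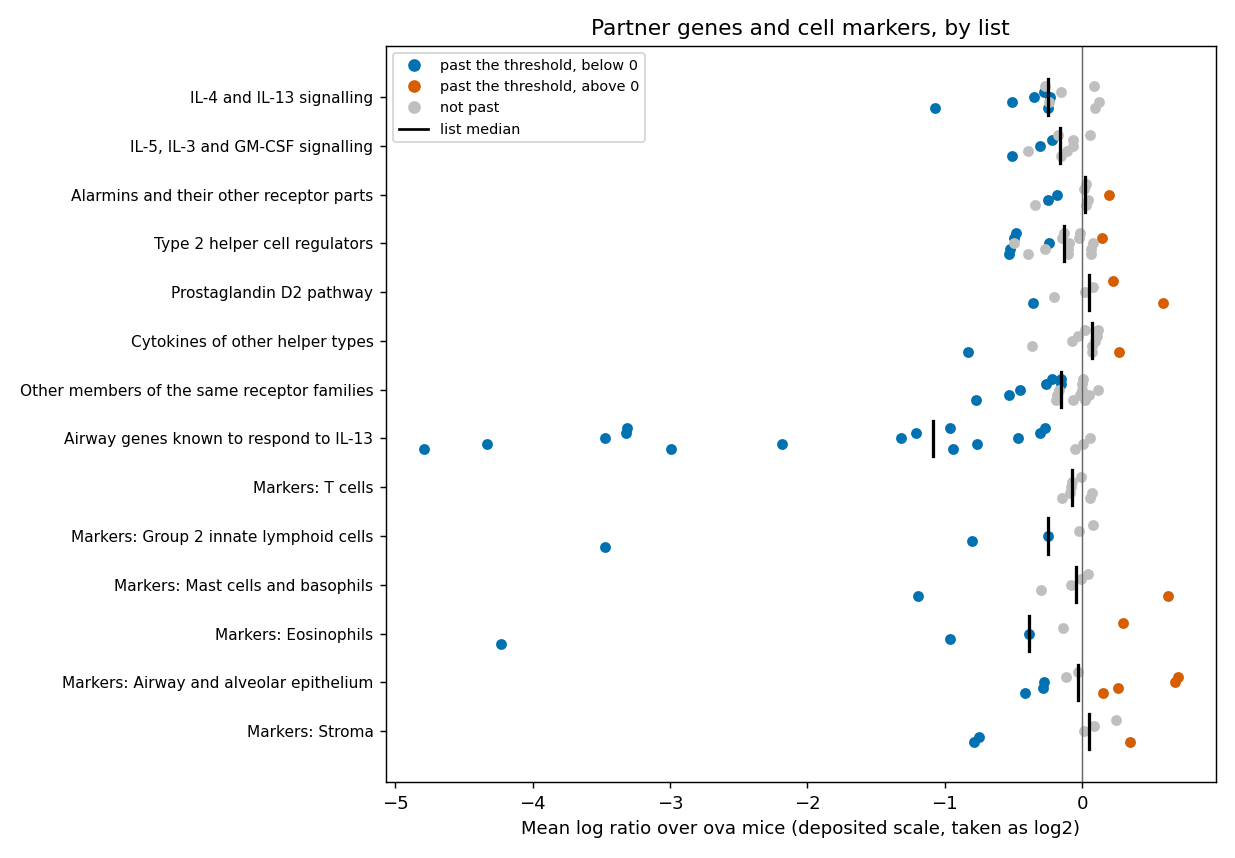
Mean log ratio over ova mice (x axis, deposited scale taken as log2) of each tested gene of the 14 lists (rows), coloured by whether it passed limma's test below 0, above 0 or not at all, with a black line at the list median. The genes known to respond to IL-13 reach -4.79 and have a median of -1.09, whereas the signalling and receptor lists stay mostly between -1.1 and 0.2 and no T cell marker passed.

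Markers of the cells that make or receive these cytokines differed in what they showed. Over all genes tested, 15% passed below 0 and 12.3% above, and the marker counts are descriptions. Of 13 T cell markers, 7 were tested and 0 passed in limma's fit, nor did any reach an unadjusted p under 0.05 (0 of 7); the median was -0.072, and the list median ranged from -0.20 in mouse 3 to 0.17 in mouse 2. Cd3d gave 0.073, Cd3e -0.15 (n = 4) and Cd8a -0.092, while Cd4 had 1 value and Lck had no probe that named it alone. Of 9 markers of group 2 innate lymphoid cells, 5 were tested and 3 passed below 0: Arg1 (-3.48), which macrophages also express, Klrg1 (-0.80 ± 0.48, adjusted p = 0.00875) and Il7r. Areg and Il1rl1 had no probe that named them alone, and Rora was blank on all arrays. Klrg1 was closest to 0 in mouse 1 (-0.21) and farthest in mouse 5 (-1.51), as Csf2rb2 was. The SD of all gene ratios was also lowest in mouse 1 (0.206) and highest in mouse 5 (0.386).

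Eosinophil markers passed below 0 in 3 of 5 tested and above 0 in 1. Rnase2a, an eosinophil-associated ribonuclease, was far larger in size, at -4.23 ± 0.60, than Alox15 (-0.96) and Ccr3 (-0.39), which also passed below 0. Alox15 is also on the list of genes known to respond to IL-13. Siglecf passed above 0 at 0.30. Prg2 did not pass (-0.14, limma adjusted p = 0.323), with mice on both sides of 0, and Epx had no value. The list median was -0.035 in mouse 1 and -0.85 in mouse 2. Of 6 tested mast cell and basophil markers, Mcpt8, a basophil protease, passed below 0 at -1.20 ± 0.46 and Gata2 above 0 at 0.62 ± 0.15. Epithelial markers, which stand for a main source of TSLP, split into 3 below and 4 above 0 of 9, with a median of -0.031. Cdh1 was at -0.41, Epcam at -0.28 and Krt18 at -0.29, and Sftpc was at 0.67 and Scgb1a1 at 0.70 (n = 4). Stromal markers gave 2 below and 1 above of 6. These marker counts stand beside 15% of all genes tested below 0 and 12.3% above. The part of any of these cells in the ratios of Il5, Csf2rb2 or Tslp was not tested.

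Genes with ratios nearest to those of a type 2 gene were found by the root mean square difference over the 5 arrays. Nearest to Il5 were Hspa5, an endoplasmic reticulum chaperone (difference 0.0656, mean -0.85), Sec11c, a signal peptidase subunit (0.0965, mean -0.78), and the collagen gene Col1a1 (0.107, mean -0.78). Nearest to Csf2rb2 was Itgb2, the beta 2 integrin chain of leukocytes (0.106, mean -0.83 ± 0.43), followed by the cell cycle phosphatase gene Cdc25a (0.153) and the coagulation factor gene F7 (0.174). Nearest to Tslp were Atxn7l3b (0.0322), 5730507C01Rik (0.0537) and Inpp5k (0.067). For Il9 they were Snrnp27 (0.0438), Mob4 (0.0485) and 6230400D17Rik (0.0563), and for Il17rb Pmepa1 (0.0203), Naip6 (0.0288) and Stx2 (0.0343). The search ran over 8042 genes with values on all 5 arrays, and these names are a description with no test.

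**Figure D4:**
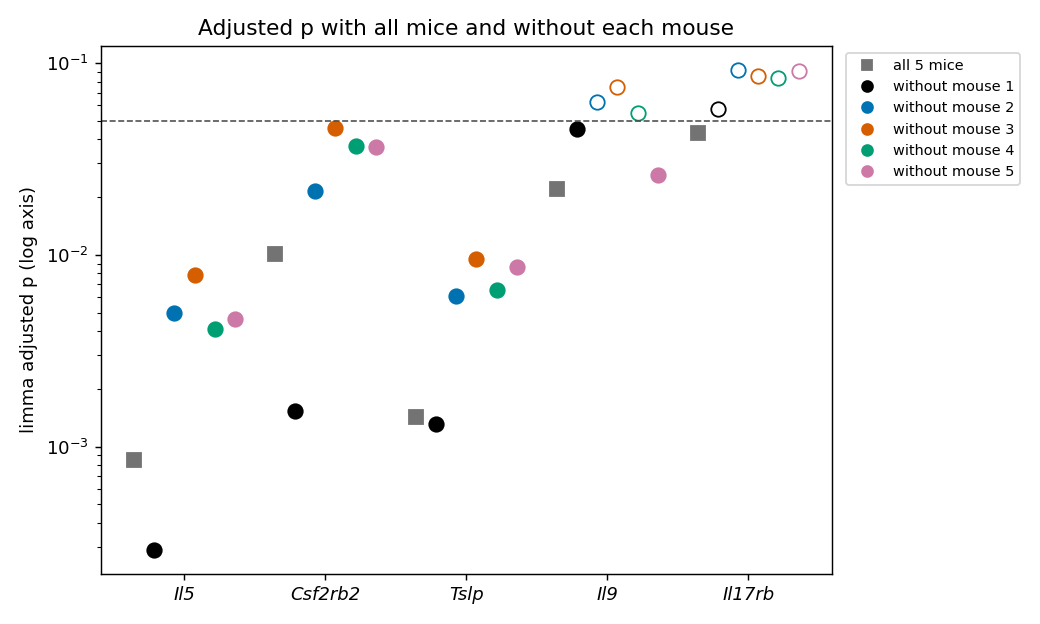
Adjusted p from limma (y axis, log scale) of the 5 type 2 genes that passed, with all 5 mice (grey squares) and without each mouse in turn (circles, coloured by the mouse left out). Open symbols lie above the dashed threshold of 0.05: Il5, Csf2rb2 and Tslp stay below it without any single mouse, Il9 rises above it without mouse 2, 3 or 4, and Il17rb without each of the 5.

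Il5 kept its call without each mouse, with means between -0.92 and -0.78 and adjusted p-values up to 0.00788. Csf2rb2 kept its call without each mouse as well, with adjusted p-values up to 0.0456, and without mouse 1 its mean was -0.90 with an adjusted p of 0.00153. Against a minimum size of 0.2, limma's treat called Il5 and Tslp, while Csf2rb2 gave an adjusted p of 0.06. An exact sign-flip test of a single gene over 5 mice cannot give a two-sided p under 0.0625, the value that Il5, Csf2rb2, Tslp, Il9 and Il17rb each reached.

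Some calls among partner genes and markers were lost when a mouse was left out, as those of Il9 and Il17rb were. Of 60 different genes of the lists that passed, 39 kept their call without each mouse and 21 lost it without at least 1. Socs1, Jak2, Csf2ra, Il6, Il31 and Klrg1 were among those that kept it. Among the receptor partners, Il7r lost its call without mouse 1, 3, 4 or 5 (adjusted p up to 0.111), Il17ra without mouse 1, 3 or 5 (up to 0.0663) and Il9r without mouse 2 or 5 (up to 0.0706). Tyk2, Il12a, Siglecf and Slco2a1 each lost it without 4 of the mice, with adjusted p-values up to 0.0948, 0.0932, 0.103 and 0.136. Notch1, Lifr, Il6st and Cldn7 lost it without any 1 of the 5, with adjusted p-values up to 0.135, 0.0989, 0.108 and 0.0962. Il18r1, Batf, Ccr3, Pdgfra and Tgm2 lost it without 3 of the mice, with adjusted p-values up to 0.131, 0.083, 0.123, 0.0648 and 0.076. Cd200r1, Col3a1 and Syk lost it without 2 (up to 0.0695, 0.0673 and 0.0661), and Hpgd and Il1r1 without mouse 3 (0.0583 and 0.0527).

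Probe number moved weakly with the ratios. Across pairs of probes that do not name the same gene, mean ratios of probes 6, 18 and 24 numbers apart correlated at r = 0.155, 0.108 and 0.107, against 0.0203 for consecutive numbers. The pairs share probes and are not independent. The 2 probes 24 numbers from that of Il5 name the replication gene Mcm3, at -1.05, and the ribosomal protein gene Rpl5, at -0.28. Those with values 6 and 18 numbers from Il5 name Endog (-0.001) and Foxn1 (-0.30). The 2 probes 24 numbers from that of Csf2rb2 name Gstm1, at 1.14, and Pcx, at -0.19, and the 4 probes 6 or 18 numbers away lay between -0.15 and 0.025. For Tslp the probes at these distances lay between -0.30 and 0.13. The part of probe number in the ratios of these genes was not tested.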

How the data were processed

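Lung RNA of 5 ova mice was compared with 1 pool of control lungs on 2-colour arrays, 1 array per mouse, and the labels number the mice as separate animals. The values deposited by the authors, 1 for each probe on each array, carry no stated unit and were read as a log2 ratio: they are signed with array medians near 0, and the largest size, 5.168, is too large for a log10 ratio of a 16-bit scanner, 4.82. Dyes, scanner, background correction, normalization and numerator: not given in the sources used here. Under the natural logarithm every fold would be larger (2.32 instead of 1.79 for Il5), with tests against 0 unchanged. The number of arrays limits the precision, and spot brightness was not part of the values used.

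Genes were named from the platform annotation (14722 probes with 1 symbol, 1 with several, 2557 with none), and 14445 of the first had a gene identifier in the GRCm38.p6 table, which changed 0 symbols. Each array was centred on its median and probes of a gene were averaged. Genes with at least 4 values were tested against 0 in R 4.3.3 with limma 3.58.1 (lmFit, eBayes, two-sided, Benjamini-Hochberg over all genes tested, threshold 0.05). The fit was also tested on simulated data with independent noise. That simulation held no offset shared by the arrays, so it cannot show how the test behaves under one. The pool counts as 1 control sample. Genes named are the 10 type 2 genes, their direct receptor, ligand and kinase partners, up to 6 genes per list and side that passed, and the 3 nearest genes by root mean square difference; other markers, chromosomal neighbours and probe neighbours were named after their values were seen. The members and lists were chosen with earlier results of these data known, so list counts are descriptions with no list test. Protein sequences were not analysed here.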

Additional observations from a re-analysis of the deposited data

Results flagged for a closer look

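One value stood apart within its gene. Il17rb, the IL-25 receptor chain gene, had -0.394 in mouse 4, while the other 4 mice lay between -0.16 and -0.11, and the gap to the nearest of them was 0.81 of the whole range, above the critical value of 0.71 for 5 samples. Of the 8 type 2 genes with at least 4 values this was the only one so marked, and chance marks about 1 in 20 groups. Without mouse 4 the mean of Il17rb was -0.13 with a limma adjusted p of 0.0839.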

How the results depend on the processing

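Il5 and Tslp kept their side and their call under all 14 alternatives, and Csf2rb2 under 13. Against a minimum size of 0.2, the type 2 genes past the threshold fell to 2 and all genes past it to 590 (379 below 0 and 211 above). Without one mouse in turn, between 3 and 4 type 2 genes passed, against 5 with all mice, and between 1599 and 2553 genes in all (928 to 1429 below 0, 671 to 1124 above); the fits rest on 4 arrays and need 3 values. Il9 lost its call under 4 alternatives and Il17rb under 6. None of the 5 type 2 genes that passed lost its call without centring, with quantile or scale normalization, with other limits on blanks, with robust moderation, with array weights or with each probe tested on its own, and none of the 5 changed side under any of the 14 alternatives. Of 182 pairs of a list and an alternative, 26 gave a count of passing genes over 1.5 times lower than the one reported, 16 of them without a mouse and 10 against the minimum size, and 0 gave one over 1.5 times higher. No paired analysis was possible because the series holds 1 group of ova mice. Blank values limit Il4 and Il13 most, and brightness over background was not analysed here.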

Other observations

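Irf4, a transcription factor of type 2 and IL-9 producing helper cells, split the mice, as seen after its values were known. Its ratio was -0.70 in mouse 1, -0.78 in mouse 2, -0.71 in mouse 3, 1.22 in mouse 4 and -1.51 in mouse 5, so that 4 mice lay on the side of Il5 and mouse 4 lay far on the other. The mean of -0.50 ± 1.02 (n = 5) did not pass (limma adjusted p = 0.297). Tnf, an inflammatory cytokine, gave 0.047 in mouse 1 and -0.19 to -0.90 in the others, with a mean of -0.37 ± 0.35 (n = 5, limma adjusted p = 0.0531).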
